A study of Mus musculus with 4 samples.

Results

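The cytosolic ribosomal protein genes were taken by symbol, as every row named Rpl or Rps followed by a number with at most a short suffix (Rpl7a, Rps4x, Rps27l), together with Rplp0, Rplp1, Rplp2 and Rpsa. The rule found 84 of the 24138 rows of the deposited table. They comprised 46 genes of the large (60S) subunit, 31 genes of the small (40S) subunit and 7 paralogs, which are additional genes for a variant of a core protein. Core proteins are those of the standard ribosome.

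The values came from bulk RNA sequencing of poly(A)-enriched liver RNA from 4 male C57BL/6J mice aged 18 weeks. Every animal had been fed the FAT-MASH diet, a model of metabolic dysfunction-associated steatohepatitis, and had been treated with RvD1 (resolvin D1), a lipid mediator of the resolution of inflammation. The labels place all samples in a single group, called livers 1 to 4, so the values describe treated animals and no effect of the diet or of RvD1 can be read from them. Values are in FPKM, fragments scaled by transcript length and by library size, a scale that allows levels of different genes to be compared per length. Spread between animals is given as the SD, with n = 4, of log2(FPKM + 1), and the deviation of a gene in a liver is its log2(FPKM + 1) in that liver minus its own mean over the 4 livers.

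Ribosomes are assembled from ribosomal RNA and one copy of most ribosomal proteins, so cells make the proteins of both subunits in step. The acidic stalk proteins are the main exception, being present in several copies. Many mRNAs of these genes begin with a cytosine and a run of pyrimidines, the terminal oligopyrimidine (TOP) tract, through which LARP1 and the kinase mTOR control their translation according to nutrients. Liver makes plasma proteins in bulk and holds abundant ribosomes, and unassembled ribosomal proteins, above all RPL5 and RPL11, bind MDM2 and stabilise p53.

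The libraries carried hepatocyte transcripts at high levels. The 10 hepatocyte markers examined summed to between 43678 and 56802 FPKM per liver. Alb itself, the albumin gene and a major transcript of liver, was listed at 0 in all 4, so a 0 in this table can be a failed estimate and is not read here as absence. Markers of other liver cells summed to far less, between 60.6 and 83.6 FPKM for macrophages and between 166 and 259 FPKM for stellate cells. Livers 1 to 4 had estimated depths of 19.5, 19.2, 19.1 and 17.6 M (mega) fragments. A mean of 1 FPKM or more, here called expressed, was reached by 81 of the 84 genes and by 10541 of all rows. At this depth the median expressed ribosomal protein gene rested on roughly 2400 fragments, and 7 rested on fewer than 500.

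The starts of the mRNAs are shown first, because the tract at the first base is the sequence feature these mRNAs are best known to share and because members with and without it are found at both ends of the range of levels. RefSeq promoter windows (GRCm38.p6) were matched for 63 of the 84 genes. Each window runs 5′ to 3′ along the mRNA strand from 10 bases before the annotated start to 20 bases from it, and capitals mark the longest run of pyrimidines that opens with C and holds at least 5 bases. In the first 7 windows the run covers the annotated start and the start base is a C.
Rpl38, chr11:114668570-114668599, plus strand: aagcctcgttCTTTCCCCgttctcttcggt
Rps15a, chr7:118116128-118116157, minus strand: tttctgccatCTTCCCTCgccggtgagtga
Rpl15, chr14:18270967-18270996, minus strand: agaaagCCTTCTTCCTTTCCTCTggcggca
Rps6, chr4:86857348-86857377, minus strand: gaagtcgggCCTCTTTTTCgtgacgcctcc
Rplp2, chr7:141447641-141447670, plus strand: cagcgtCTTCCTTTCgccgccggacgccgc
Rps27, chr3:90213629-90213658, minus strand: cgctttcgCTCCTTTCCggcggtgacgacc
Rpl28, chr7:4792955-4792984, plus strand: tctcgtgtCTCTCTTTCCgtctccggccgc
Rps2, chr17:24720053-24720082, plus strand: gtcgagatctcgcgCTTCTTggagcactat
Rps26, chr10:128626487-128626516, minus strand: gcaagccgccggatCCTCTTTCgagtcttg
Rpl22l1, chr3:28805498-28805527, plus strand: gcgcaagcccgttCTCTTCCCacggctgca
Rps27l, chr9:66946076-66946105, plus strand: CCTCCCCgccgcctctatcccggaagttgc
Rpl41, chr10:128549149-128549178, minus strand: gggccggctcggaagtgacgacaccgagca
Rps15, chr10:80292421-80292450, plus strand: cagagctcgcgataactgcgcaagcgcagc
Rpl7l1, chr17:46782637-46782666, minus strand: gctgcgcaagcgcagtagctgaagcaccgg
The run lies downstream of the annotated start in Rps2, Rps26 and the paralog Rpl22l1, upstream of it in Rps27l, and no such run is found in the windows of Rpl41, Rps15 and Rpl7l1.

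A C followed by at least 4 further pyrimidines stood exactly at the annotated start in 13 of the 63 matched genes, or 20.6%, beside 3.16% of the 8135 matched genes expressed in these livers. None of the 66 matched mitochondrial ribosomal protein genes and none of the 33 matched proteasome genes had it. When the run was allowed to lie from 10 bases before to 17 bases after the start and had to hold a C and at least 6 pyrimidines, a rule chosen after the first counts were seen, 47.6% of the ribosomal protein genes, 15.9% of all expressed genes, 10.6% of the mitochondrial and 9.09% of the proteasome genes held one. Annotated starts can be off by several bases, so a window without a run at the start says only that the letters are not there.

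The 300-base promoters were also searched on both strands for 4 short motifs. CCGGAA, the core of the site bound by ETS factors, was found in 55.6% of the matched ribosomal protein genes, in 32.3% of expressed genes and in 56.1% of the mitochondrial ribosomal protein genes. TATAAA, the TATA box, was found in 11.1% beside 9.08% of expressed genes. GGGCGG, the core of the GC box, was found in 61.9% beside 69.0% of expressed genes. AAGATGGC, the core of the YY1 site, was found in 9.52% beside 5.65% of expressed genes and 18.2% of the mitochondrial set. The motifs were counted per gene and were not required to be free of overlap.

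In livers 1 to 4, the combined share of the 84 genes in a library's total FPKM was 4.57, 5.15, 4.52 and 4.87%. The 31 genes of the 40S subunit held 1.97, 2.27, 1.94 and 2.15%, and the 46 genes of the 60S subunit held 2.55, 2.83, 2.54 and 2.69%. The totals lack albumin, which is listed at 0. Both subunits were highest in liver 2 and lowest in liver 3 as a share of the total. In a bulk sample, fewer cells of a type and less RNA per cell cannot be told apart. For comparison, the 75 mitochondrial ribosomal protein genes held 0.496 ± 0.00786% (SD, n = 4) and the 40 proteasome genes 0.465 ± 0.0262% (SD, n = 4). Both comparison sets were taken by symbol. The proteasome set therefore also holds Psmc3ip, which is not a proteasome subunit, and the inducible or tissue-specific subunits Psma8, Psmb8, Psmb9, Psmb10 and Psmb11.

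The core genes lay within a narrow band of levels, with a few far from it. The median over the 77 core genes was 288 FPKM, the quartiles were 202 and 394 FPKM, a 1.95-fold range, and 63 genes lay between 100 and 500 FPKM. Another 11 lay at 500 FPKM or more and 3 below 100 FPKM, so that the highest and the lowest core gene differed 77.6-fold. The median of the 40S genes was 316 FPKM and that of the 60S genes 284 FPKM. The order of the genes was nearly the same in every animal, with Spearman's rho between 0.965 and 0.984 for the 6 pairs of livers across the 77 core genes, which share their libraries and transcript lengths.

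**Figure D1:**
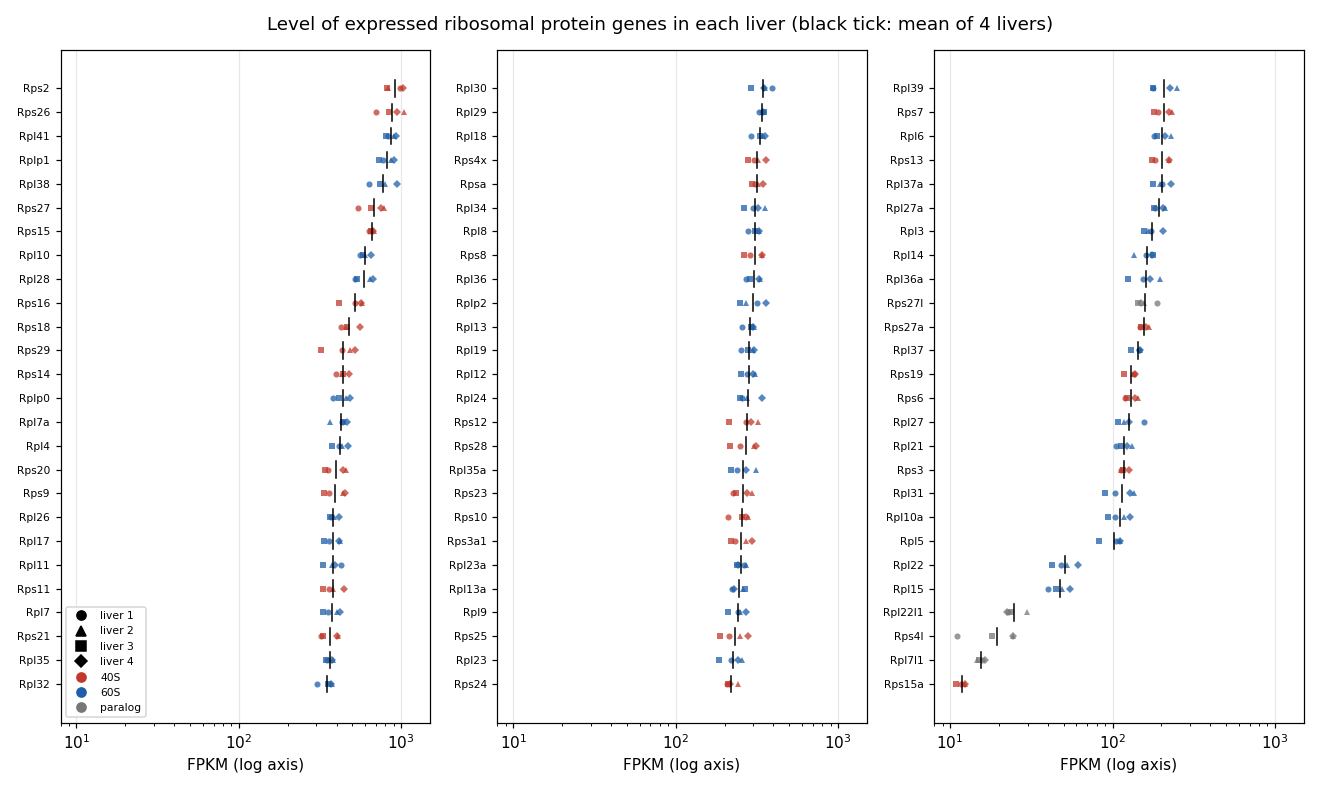
Level of expressed ribosomal protein genes in FPKM, a few of which are not shown, on a log axis, ordered by mean, with 1 symbol per liver, colour for the subunit and a black tick at the mean of the 4 livers. Most genes lie between 100 and 500 FPKM with their 4 livers close together, while Rps15a, Rpl15 and Rpl22 stand below 100 FPKM among the paralogs.

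The highest levels belonged to genes of both subunits. Rps2, a 40S protein at the mRNA entry channel, was at 991, 833, 822 and 1025 FPKM in livers 1 to 4, a mean of 918 ± 105 FPKM (SD, n = 4). Rps26, at the mRNA exit site, was at 704, 1034, 846 and 944 FPKM. Rpl41, a very short basic peptide of the 60S subunit, was at 826, 908, 810 and 924 FPKM. The ranges of these 3 genes overlapped, so their order within the top of the list is not resolved.

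The next highest were Rplp1, one of the acidic stalk proteins, at 779, 864, 728 and 908 FPKM, and Rpl38, a 60S protein, at 635, 795, 742 and 941 FPKM. The 40S proteins Rps27 and Rps15 followed. Rps27, a zinc-finger protein, was at 545, 781, 655 and 755 FPKM. Rps15, a protein of the 40S head, was at 637, 682, 648 and 673 FPKM, the closest agreement among these genes. Rpl10, which joins the 60S subunit late in its maturation, was at 561, 600, 584 and 655 FPKM. Like Rpl38 and Rps27, the 60S gene Rpl28 has a C and a pyrimidine run at its annotated start, and it was at 521, 642, 538 and 675 FPKM. Values of Rpl38 and Rps15 carry a limit: the table gives them merged spans of 413361 and 672333 bp that also serve 3 and 46 other genes.

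At the other end, Rps15a, a protein of the 40S body, was at 11.7, 12.4, 10.9 and 12.4 FPKM, a mean of 11.8 ± 0.726 FPKM (SD, n = 4). It lay below the lowest core gene of the 60S subunit, Rpl15, at 39.9, 48.7, 45.0 and 55.1 FPKM, in every liver. Rpl22, a 60S protein that cells can lose without losing their ribosomes, was at 48.3, 52.3, 42.3 and 61.6 FPKM and overlapped Rpl15. Above them came Rpl5 at 105, 111, 82.3 and 111 FPKM and Rpl10a, the protein of the mobile L1 stalk, at 103, 118, 93.9 and 128 FPKM. Rps15a, Rpl15 and Rpl22 were the 3 lowest core genes in each of the 4 animals.

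The GENCODE vM21 models of these 3 genes differ widely in length. Full-length protein-coding models of Rps15a run from 640 to 5179 bases, those of Rpl15 from 802 to 1922 and those of Rpl22 from 474 to 2051. Across the 77 core genes, Spearman's rho between mean FPKM and the longest model was -0.34, and with the shorter principal model it was -0.16. The 32 genes with a model of at least 1000 bases had a median of 238 FPKM and the other 45 a median of 310 FPKM. Long models were also found at ordinary levels. Rps20, with a single model of 3706 bases, was at 356, 458, 339 and 438 FPKM, and Rpl18, Rpl9 and Rpsa, with longest models of 2989, 2690 and 1938 bases, had means of 330, 243 and 316 FPKM. FPKM divides by a transcript length estimated upstream, and its part in the low values was not tested.

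Close copies elsewhere in the genome are a second property of the set. In the chosen transcript of each core gene, a median of 61.2% of the 50-base windows were found in the transcript of at least 1 other gene, compared with 3.01% for the mitochondrial ribosomal proteins and 0.679% for the proteasome. At least 50% of the windows were shared in 51 of the 77 core genes, in 4 of 75 mitochondrial and in 3 of 40 proteasome genes. A median of 9 annotated pseudogenes shared such windows with a core gene, with 121 for Rpl7a, 81 each for Rpl29 and Rpl21, and 71 for Rps2. The values of genes with such copies are to that extent uncertain, since the sources used here do not give how reads matching several places were treated.

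Levels were set beside this sharing. The 51 core genes with at least 50% shared windows had a median of 285 FPKM, the 22 with 10 to 50% a median of 317 FPKM and the 4 with less than 10% a median of 354 FPKM. Spearman's rho across the 77 genes was -0.07, and -0.18 with windows of 100 bases, given as a description of genes that share libraries. Few pseudogene rows are in the table: Rpl14-ps1 was at 3.45, 2.41, 4.03 and 2.94 FPKM, beside 160, 136, 178 and 176 FPKM for Rpl14 itself, while Rps19-ps3, Rps15a-ps6, Rps15a-ps4 and Rpl31-ps12 were at 1.49 FPKM or less, with some livers listed at 0.

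**Figure D2:**
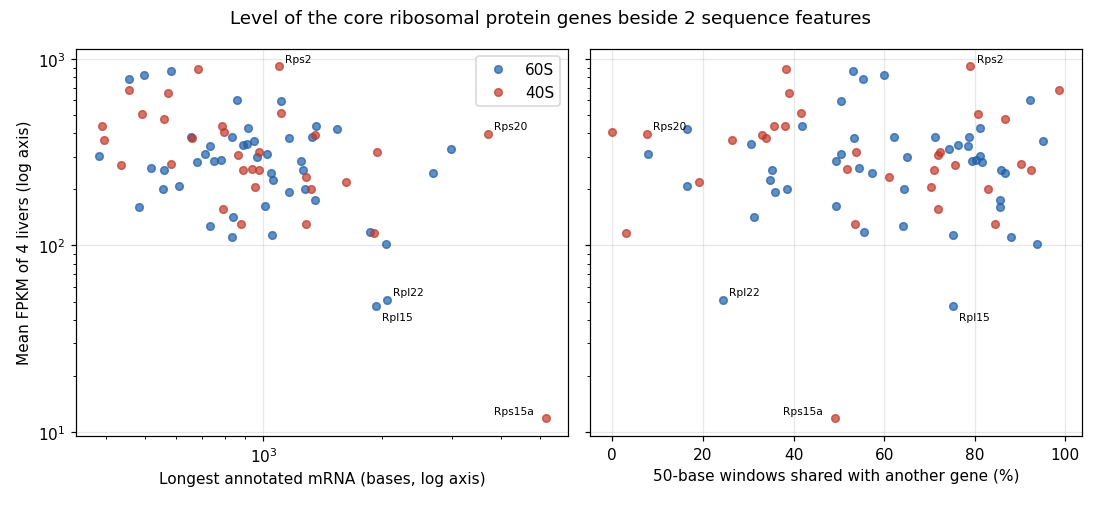
Mean FPKM of the 77 core genes on a log axis against the longest annotated mRNA in bases (left, log axis) and against the percentage of 50-base windows shared with another gene (right), 1 point per gene, coloured by subunit. On the left, Rps15a, Rpl15 and Rpl22 combine long models with low levels while Rps20, Rpl18, Rpl9 and Rpsa do not, and on the right rho is -0.07.

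Within the 60S subunit, the stalk that recruits elongation factors is built from Rplp0, Rplp1, Rplp2 and Rpl12. Rplp0, its base, was at 383, 461, 415 and 485 FPKM, and Rplp1 was 1.88 ± 0.114 times Rplp0 (SD, n = 4). Rplp2, the partner that pairs with Rplp1 in equal numbers on the ribosome, was at 316, 273, 250 and 361 FPKM, or 0.691 ± 0.112 times Rplp0 (SD, n = 4). Rplp1 exceeded Rplp2 in every liver with no overlap. Rpl12, which sits beside the stalk base, was at 275, 307, 254 and 301 FPKM.

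Rpl5 and Rpl11, which travel with the 5S ribosomal RNA and are the main ribosomal binders of MDM2, were unequal. Rpl11 was at 429, 374, 330 and 389 FPKM, which is 3.75 ± 0.356 times Rpl5 (SD, n = 4) and higher in each animal. Rpl23, another MDM2 binder, was at 219, 257, 185 and 242 FPKM. All 3 were lowest in liver 3, as were 47 of the 81 expressed members and 31.4% of all expressed genes. Trp53, which encodes p53, was at 14.3, 15.2, 21.2 and 15.6 FPKM. Mdm2 was at 7.08, 7.21, 7.75 and 8.92 FPKM, highest in liver 4. With 4 animals in a single group, no relation between these genes was tested.

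The proteins that line or ring the peptide exit tunnel followed the whole set over the animals. Rpl4, whose loop reaches into the tunnel, was at 412, 432, 375 and 468 FPKM, and Rpl26, on its rim, at 370, 383, 364 and 414 FPKM. All 9 genes of this list were above their own mean in liver 2, 8 of 9 were above it in liver 4, and none was above it in liver 3, beside 66, 76 and 10 of all 81 expressed members and 45.1, 60.8 and 47% of all expressed genes. Rpl39, a small protein inside the tunnel, was at 178, 251, 177 and 227 FPKM and Rpl31, on the rim, at 103, 135, 90.01 and 129 FPKM, and both were among the 8 genes of largest spread, with SDs of 0.25 and 0.27 on the log2 scale. Of the peptidyl transferase region, Rpl3 was at 174, 166, 157 and 205 FPKM and Rpl8 at 281, 326, 307 and 324 FPKM.

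In the 40S subunit, the genes of the decoding site, the mRNA entry channel and the head were above their own mean in 1, 4, 0 and 6 of 6 cases in livers 1 to 4, beside 16, 66, 10 and 76 of all 81 expressed members and 47.2, 45.1, 47 and 60.8% of all expressed genes. Rps3, at the entry channel, was at 112, 114, 116 and 127 FPKM, an SD of only 0.08 on the log2 scale. Rps29, a small zinc-binding protein of the head, was at 430, 484, 321 and 523 FPKM, the largest spread of any core gene (SD 0.31). Among genes of the platform and the mRNA exit, Rps28 was at 248, 303, 218 and 311 FPKM. Rpsa, the laminin receptor protein, was at 306, 320, 295 and 345 FPKM. Rps6, the substrate of the S6 kinases downstream of mTOR, was at 119, 143, 122 and 137 FPKM.

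Rps27a, translated as a fusion with ubiquitin, was at 147, 167, 151 and 162 FPKM. Fau, which lies outside the naming rule and encodes a ubiquitin-like protein joined to the 40S protein S30, was at 148, 141, 130 and 177 FPKM. Rack1, a scaffold on the 40S head that the table lists under an older symbol, was at 252, 233, 259 and 284 FPKM. Neither Fau nor Rack1 was above its own mean in liver 2, where most ribosomal protein genes were.

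Genes mutated in Diamond-Blackfan anaemia, a failure of red cell production, were represented by 16 members. Their median level was 258 FPKM. Rps19, the gene most often affected in that disease, was at 136, 134, 117 and 137 FPKM. Counts above their own mean were 5, 13, 1 and 15 of 16 in livers 1 to 4, beside 47.2, 45.1, 47 and 60.8% of all expressed genes, with median deviations of -0.09, 0.15, -0.17 and 0.11. The pattern over the livers was that of the whole set, which contains them.

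Of the 7 paralogs, 4 were expressed. Rps27l, a variant of Rps27 known as a p53 target, was the most abundant at 188, 156, 143 and 151 FPKM, which is 24.1 ± 6.96% of Rps27 (SD, n = 4), with the highest ratio, 0.344, in liver 1 and ratios between 0.199 and 0.219 in the others. Rpl22l1, which can take the place of Rpl22, was at 22.9, 29.8, 23.6 and 22.5 FPKM or 49.1 ± 9.46% of Rpl22 (SD, n = 4). Rpl7l1, a relative of Rpl7, was at 15.8, 14.7, 15.1 and 16.4 FPKM or 4.15 ± 0.425% of it (SD, n = 4).

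Rps4l, a variant of Rps4x, was at 11.1, 24.2, 18.1 and 24.5 FPKM. Its SD of 0.51 on the log2 scale was the largest of all 81 expressed genes, with liver 1 lowest. The table gives it a merged span of 396937 bp shared with 4 other genes, and no GENCODE transcript was matched to it. Rpl36al, an intronless relative of Rpl36a outside the naming rule, was at 218, 197, 168 and 213 FPKM, or 126 ± 17.9% of Rpl36a (SD, n = 4), and exceeded it in all 4 livers.

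The remaining paralogs are known from other tissues. Rpl10l, a testis gene that stands in for the X-linked Rpl10 during male meiosis, was listed at 0 in all livers. Rpl3l, a muscle variant of Rpl3, was listed at 0.0649 FPKM in liver 1 and at 0 in the others, and Rpl39l at 0.0848 FPKM in liver 3 and at 0 in the others. These 0s may be failed estimates, as for Alb. Their core partners Rpl10, Rpl3 and Rpl39 had means of 600, 175 and 208 FPKM.

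Animals differed in the level of the whole set. The median deviation of the 81 expressed genes was -0.09, 0.09, -0.13 and 0.12 in livers 1 to 4, and the number of genes above their own mean was 16, 66, 10 and 76 of 81. Of all 10541 expressed genes, 47.2, 45.1, 47 and 60.8% were above their own mean in livers 1 to 4, with median deviations of -0.01, -0.02, -0.01 and 0.04. Livers 1 to 4 held the highest of the 4 values for 4, 34, 4 and 39 ribosomal protein genes, beside 17.9, 22, 26.8 and 33.3% of all expressed genes.

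Both subunits showed it. Median deviations were -0.09, 0.15, -0.15 and 0.14 for the 40S genes and -0.07, 0.08, -0.13 and 0.11 for the 60S genes. Among the few genes with a different order, liver 3 was highest for Rpl29, Rpl14 and Rpl13a, and liver 1 was highest for Rpl11, Rpl30, Rpl27 and the paralog Rps27l. Rpl30, a 60S protein that regulates its own mRNA in yeast, was at 394, 355, 291 and 348 FPKM, and Rpl27, a 60S protein, at 156, 117, 109 and 126 FPKM.

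The order of the animals was uneven across genes. In 20 of the 81 genes the values ascended from liver 3 through liver 1 and liver 2 to liver 4, in 17 from liver 3 through livers 1 and 4 to liver 2, and in 15 from liver 1 through livers 3 and 4 to liver 2. These orders were not counted over all expressed genes, so whether they are particular to the set is not known. Only 1 gene, the paralog Rpl22l1, was lowest in liver 4. The lowest of the 4 values fell in livers 1 to 4 for 29, 4, 47 and 1 of the members, beside 20.7, 29.9, 31.4 and 18.1% of all expressed genes.

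Other abundant transcripts varied partly in the same way. The 1331 other genes averaging 50 FPKM or more had median deviations of -0.03, -0.05, -0.06 and 0.12, so that liver 4 was as high for them as for the ribosomal protein genes. Subtracting their medians left -0.06, 0.14, -0.08 and -0.004 for the ribosomal protein genes. With each library rescaled to the same sum, the median of the set in liver 4 was 0.02 and 52 of 81 genes were above their own mean there, beside 57.6% of the other abundant genes. In liver 2 it was 0.12 with 70 of 81 above, beside 45.5% of the other abundant genes. The mitochondrial ribosomal protein genes had medians of -0.04, 0.001, -0.03 and 0.06 and the 37 expressed proteasome genes 0.07, -0.06, -0.12 and 0.13.

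**Figure D3:**
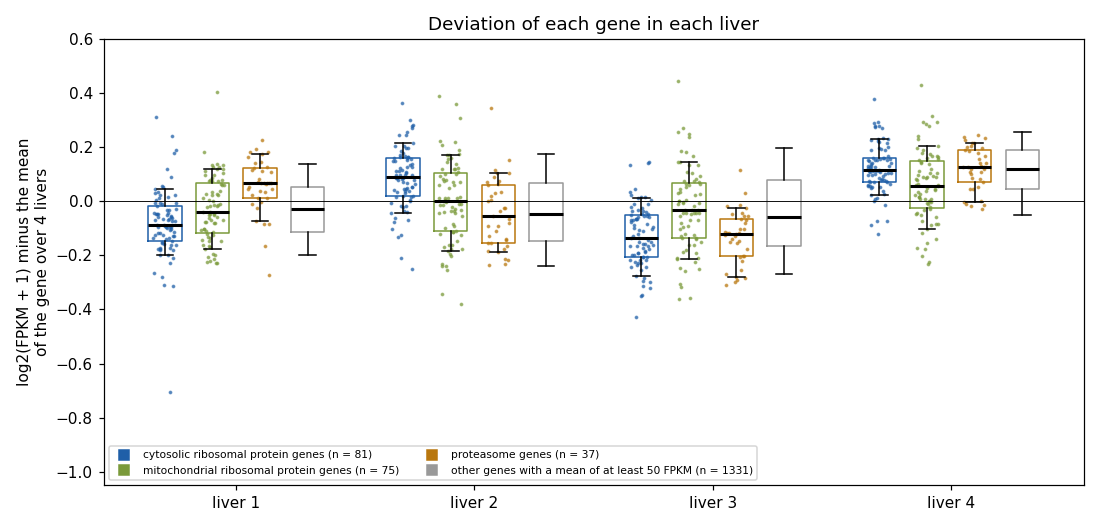
Deviation of log2(FPKM + 1) from the gene's mean over 4 livers, with 1 dot per gene, for cytosolic ribosomal protein genes (n = 81), mitochondrial ribosomal protein genes (n = 75), proteasome genes (n = 37) and other abundant genes (n = 1331, box only). Boxes span the quartiles, the thick line is the median and whiskers run from the 10th to the 90th percentile. The ribosomal protein genes lie mostly below 0 in livers 1 and 3 and above 0 in livers 2 and 4.

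Transcript length was set beside the deviations, since most of these mRNAs are short. The 31 members without a model of 800 bases or more had medians of -0.09, 0.09, -0.10 and 0.11 and the 49 other expressed members with a model -0.07, 0.09, -0.15 and 0.12. Among other abundant genes, the 111 without a model of 800 bases or more had -0.03, 0.02, -0.09 and 0.09, and the 400 with every model of at least 2000 bases had -0.03, -0.06, -0.04 and 0.11.

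Transcripts of other cell types varied over the animals too. The 8 macrophage markers, all above 0 in every liver, summed to 67.9, 82.6, 60.6 and 83.6 FPKM in livers 1 to 4, the same order of animals as the summed ribosomal protein genes. The 6 endothelial markers summed to 41.9, 54.5, 46.7 and 53.3 FPKM, and the 6 stellate markers to 199, 259, 166 and 188 FPKM. Most of the stellate sum was Dcn, at 140, 194, 117 and 141 FPKM. The 8 lymphocyte markers summed to 5.20, 6.81, 5.60 and 4.76 FPKM and the 4 neutrophil markers in the table to 10.04, 17.8, 10.4 and 7.82 FPKM. Both were highest in liver 2 and lowest in liver 4, whereas the summed FPKM of the ribosomal protein genes was highest in liver 4 and their share of the total in liver 2. The hepatocyte markers summed to 53699, 43678, 52757 and 56802 FPKM. Of the 9 detected, 3, 3, 2 and 1 were lowest in livers 1 to 4, beside 20.7, 29.9, 31.4 and 18.1% of all expressed genes. The 5 cholangiocyte markers summed to 233, 204, 192 and 213 FPKM, most of it Spp1, at 214, 182, 171 and 195 FPKM. The 3 erythroid markers in the table summed to 870, 705, 372 and 592 FPKM. The part of these cell types in the ribosomal protein values was not tested.

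The size of the spread between animals was ordinary. The median SD over the 81 genes was 0.16 on the log2 scale, with 10th and 90th percentiles of 0.09 and 0.24, beside 0.16 (0.08 to 0.30) over all expressed genes. Rpl29 had the smallest spread, at 326, 344, 349 and 343 FPKM (SD 0.04), followed by Rps15 at 0.05, Rpl7l1 at 0.07 and, among others, Rps3, Rpl35, Rpl26 and Rps15a at 0.08 each. Besides Rps4l and Rps29, the widest were Rpl36a and Rpl31 at 0.27, Rps12 and Rpl39 at 0.25, and Rps28 and Rps25 at 0.24. Rpl36a was at 153, 195, 124 and 170 FPKM and Rps12 at 270, 321, 213 and 292 FPKM, and in both liver 3 was lowest and liver 2 highest.

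A single animal rarely stood apart from the other three. Each gene was scored by how far its outermost liver lay from the nearest other, as a ratio of the range (Dixon's ratio), and 1 of 81 ribosomal protein genes passed the 95% critical value for 4 samples, beside 5.46% of all expressed genes. That gene was Rpl37, a 60S protein, at 145, 148, 131 and 148 FPKM, with liver 3 lowest and a ratio of 0.840. Rps19 lay just below the threshold at 0.828. The call rests on the scaling: with median-ratio scaling Rpl37 fell to 0.749 while Rps24 and Rps19 passed, and with each library rescaled to the same sum only Rpl35 passed, at 0.941.

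Expressed as a fraction of the summed ribosomal protein FPKM of its own liver, a gene varied less. The median SD of the log2 fraction was 0.10, beside 0.16 for the log2 level, and it was smaller than the SD of the level for 65 of 81 genes. Dividing the mitochondrial ribosomal protein genes by their own sum left their median SD at 0.15, with a smaller value for 43 of 75, and for the proteasome genes the median changed from 0.17 to 0.11, with a smaller value for 30 of 37. The steadiest fractions were those of Rpl41 (SD 0.03), Rplp1 (0.03), Rpl27a (0.04) and Rpl7 (0.04). Rps2 and Rps26, whose ranges of FPKM overlapped that of Rpl41, had larger fraction SDs of 0.17 each.

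The fractions that varied most singled out a few genes. Rps4l had an SD of 0.45. Rpl27 held 0.651, 0.436, 0.465 and 0.452% of the sum in livers 1 to 4, highest in liver 1. Rpl14, a 60S protein, held 0.669, 0.505, 0.763 and 0.632%, lowest in liver 2 and highest in liver 3. Rps27l held 0.783, 0.581, 0.614 and 0.542%, highest in liver 1 like Rpl27.

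Rpl7a and Rpl13a both had their highest fraction in liver 3. Rpl7a, a 60S protein, held 1.81, 1.36, 1.87 and 1.67% of the sum, lowest in liver 2. Rpl13a, a 60S protein whose introns carry small nucleolar RNAs, held 0.922, 0.965, 1.15 and 0.824%, lowest in liver 4. Rps29 held 1.80, 1.80, 1.38 and 1.88% and was low in liver 3 alone. Of the 32 small nucleolar RNA rows that lie within the spans of 23 members, 31 were listed at 0 in every liver.

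**Figure D4:**
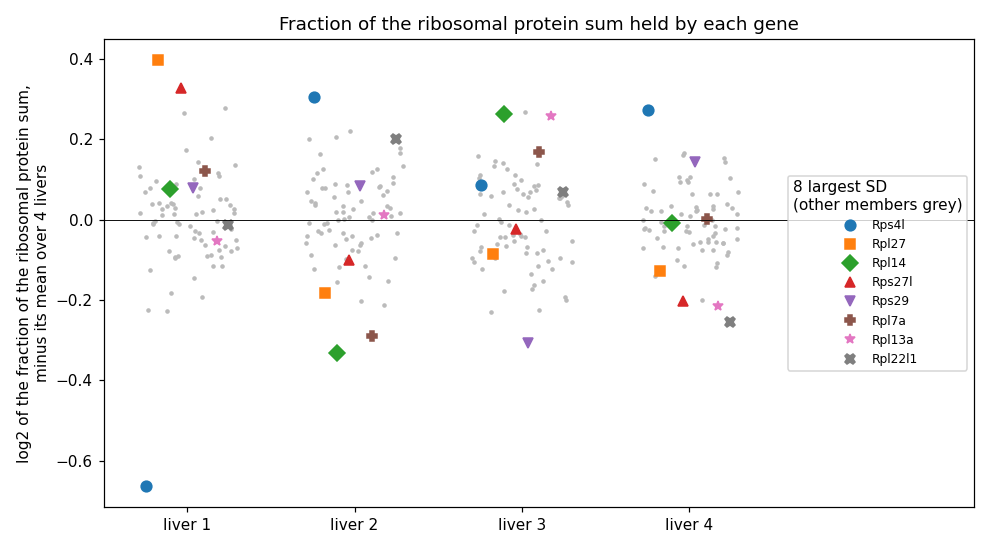
Log2 of the fraction of the summed ribosomal protein FPKM held by each of the 81 expressed genes, minus its mean over the 4 livers, by liver. Coloured symbols are the 8 genes with the largest SD and grey dots the others. Rps4l in liver 1 lies furthest from 0, Rpl27 and Rps27l are highest in liver 1, and Rpl14 and Rpl13a are highest in liver 3.

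The summed FPKM of genes named Rpl was 1.26 ± 0.0290 times that of genes named Rps (SD, n = 4). For the core genes alone the ratio was 1.29, 1.24, 1.31 and 1.25 in livers 1 to 4, so the balance of the subunits moved by little while the summed level moved. The ratio was higher in livers 1 and 3, where the summed level was lower, than in livers 2 and 4. With medians of the expressed members in place of sums the ratio was 0.916, since the 60S subunit has more genes and the 40S genes have the higher median.

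Other mRNAs known to carry a TOP tract were examined with a list of 19 genes. Eef1a1, the elongation factor that delivers aminoacyl-tRNA, was at 2565, 2992, 2617 and 3299 FPKM, above every ribosomal protein gene. Tpt1, the translationally controlled tumour protein, was at 1209, 1450, 987 and 1434 FPKM and Npm1, a nucleolar chaperone, at 82.8, 105, 79.8 and 109 FPKM. These 3 were higher in livers 2 and 4 than in livers 1 and 3, as most ribosomal protein genes were. Eef2, the translocase, was at 550, 615, 642 and 667 FPKM and Eif3h, an initiation factor subunit, at 86.1, 79.7, 103 and 88.3 FPKM, and they were not. The median deviations of the 19 were -0.05, 0.03, -0.06 and 0.13, with 4, 11, 6 and 15 genes above their own mean, beside 47.2, 45.1, 47 and 60.8% of all expressed genes.

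Genes of ribosome assembly had their highest median in liver 3, where the ribosomal protein genes had their lowest. The 45 ribosome biogenesis genes had median deviations of -0.03, -0.07, 0.11 and 0.03, and 16, 15, 32 and 23 of them were above their own mean in livers 1 to 4, beside 47.2, 45.1, 47 and 60.8% of all expressed genes. Liver 3 held the highest value for 21 and the lowest for 8, beside 26.8 and 31.4% of all expressed genes. The summed FPKM of the 45 was instead highest in liver 4, at 605, 621, 606 and 697. Among the 8 lowest in liver 3 were the most abundant, Nop10, at 113, 111, 88.6 and 144 FPKM, and Npm1, which is also on the TOP list. Nop56, a core protein of the box C/D particle, was at 9.23, 8.95, 13.3 and 11.9 FPKM. Rrp9, which acts in 18S ribosomal RNA processing, was at 3.30, 3.39, 6.06 and 3.41 FPKM, with liver 3 apart from the others. Myc, a transcription factor that drives many of these genes, was at 2.28, 3.54, 2.33 and 14.3 FPKM, with liver 4 highest.

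The genes that control translation of TOP mRNAs had median deviations of -0.04, -0.08, 0.09 and 0.04 over 18 genes, with 6, 7, 12 and 11 above their own mean, against the same background of 47.2, 45.1, 47 and 60.8%. Larp1, which binds the tract, was at 17.4, 16.96, 23.7 and 18.5 FPKM. Mtor was at 6.81, 4.58, 5.92 and 6.05 FPKM, lowest in liver 2. Akt1s1, an inhibitory subunit of mTOR complex 1, was at 22.9, 27.6, 43.0 and 26.9 FPKM. Larp1 and Akt1s1 were therefore highest in liver 3. These are mRNA levels, and neither translation nor kinase activity was measured.

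The genes were spread over 19 chromosomes, with 14 on chromosome 7, 8 on chromosome 17, and 7 each on chromosomes 9 and 11. The X chromosome carried Rpl10, Rpl36a, Rpl39 and Rps4x, with means of 600, 161, 208 and 317 FPKM, all within the range of the autosomal genes. In the table, 9 members share a span with another gene and 7 have spans of over 30000 bp, so that fragments of neighbouring genes may not be separable there. Those with the widest spans were Rps15, Rpl38, Rps4l, Rpl31 and Rpl5.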

How the data were processed

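The deposited table holds 1 value per gene and liver, made by the authors and taken here to be FPKM, since the header names no unit, the values are not whole, and the submitters' processing notes name Cufflinks. The submitters' processing notes list FastQC 0.10.1, Trim Galore 0.6.3, cutadapt, STAR 2.7.6a, Cufflinks 2.2.1 and the build mm10, without their settings, and the treatment of multiply mapping reads is not given in the sources used here. Columns were matched to livers through the sample descriptions, with 0 left unmatched. FPKM holds no counts, so the depths, estimated from the value of 1 fragment on genes with a single transcript, are approximate and limit precision for low genes only.

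Values were analysed as log2(FPKM + 1) without further scaling, with Python 3.11.15, numpy 2.4.6 and pandas 2.3.3. A gene counted as expressed at a mean of 1 FPKM or more. With a single group no test between groups was possible. The 1 call rule was Dixon's ratio with its 95% critical value for 4 samples, applied to every expressed gene and tested on simulated data. The labels name separate livers but do not describe how the animals were housed or processed.

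Spans are those of the table with 1 added to each start, after which 51 of 84 starts equalled RefSeq's, against 6 as deposited. Transcript models and shared windows came from GENCODE vM21 and start windows from RefSeq, both of GRCm38, of which mm10 is another name. Windows of 100 bases were also computed. Protein sequences were not used here.

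Genes named are the 8 highest, lowest, widest and narrowest members, those listed at 0, those past the critical ratio, and the members of lists by role. A few genes are not reported here. Other members named were chosen after their values were seen. The members and lists were chosen with earlier results of these data known. Other pseudocounts, minimum means, scalings, summaries, exclusions of paralogs and single livers left out were tried.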

Additional observations from a re-analysis of the deposited data

Results flagged for a closer look

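Rpl37 was flagged in the 60S set because liver 3, at 131 FPKM, lay apart from 145, 148 and 148 FPKM in the other livers, with a gap of 0.840 of the range past Dixon's 95% critical value for 4 samples. Among the other genes named, Rrp9 had liver 3 at 6.06 FPKM and the others between 3.30 and 3.41 FPKM, a gap of 0.948 of the range. Chance puts about 1 in 20 groups past this value, and 5.46% of all 10541 expressed genes were past it. Whether either value reflects the animal or the library was not tested.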

How the results depend on the processing

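Of 90 alternative values computed for 10 results, 83 moved by less than their yardstick, which was the spread between livers, for the 2 median SDs by the SD of the values with 1 liver left out, and for the 2 counts of genes by a factor of 1.5. For the 44 alternatives of the median deviations that spread was 0.126, about as large as the deviations themselves, so it says little of their stability. None of the 44 changed sign, and their ranges were -0.13 to -0.04 in liver 1, 0.06 to 0.14 in liver 2, -0.15 to -0.09 in liver 3 and 0.02 to 0.16 in liver 4. Several of the 83 could not have moved. Every expressed member had a mean of at least 11.8 FPKM and the others had 0.0212 FPKM or less. Minimum means of 0.1 and 5 FPKM therefore kept the same 81 genes, and leaving out members listed at 0 hardly changed any sum. The share of summed FPKM was 5.67% without the 10 rows of highest mean, which shrinks its denominator, and Alb, listed at 0, is missing from the denominator throughout. The median SD between livers was 0.149 with median-ratio scaling and 0.142 with each library scaled to the same sum. The number of genes past the critical ratio was 2 with median-ratio scaling, and these were not the gene called as deposited. The ratio of summed 60S to 40S values became 0.916 with medians in place of sums. With 1 liver left out, the median SD between livers ranged from 0.144 to 0.172 and the median SD of the fractions from 0.0803 to 0.106, lowest without liver 3 in both cases. The critical ratio was not computed with a liver left out, since it needs 4 samples. No paired analysis was possible because the labels give a single group. Depth limits mainly Rps15a and the low paralogs, and the FPKM of genes with close copies or merged spans is uncertain by an unknown amount.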
